A study of Mus musculus with 12 samples.

Results

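Transcripts of 7 genes that are marks of Schwann cells or of neuroendocrine cells were followed through 12 RNA-seq libraries of mouse kidney. The Schwann cell genes are Sox10, Foxd3, Fabp7, Cdh19 and Xkr4 (5 genes), and the neuroendocrine genes are Chga and Chgb (2 genes). They are 7 of the 36186 genes listed in the deposited counts. The 7 genes were chosen from measured values of these same libraries, in which they are low and differ between genotypes, so their levels are given as a description and nothing is concluded from a test of them.

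Whole kidneys were taken from mouse embryos of a mixed background at E18.5, and RNA was sequenced from 4 genotypes with 3 libraries each. The wild type libraries Wt_30, Wt_37 and Wt_55 are together called Wt. Libraries AkCh_20, AkCh_31 and AkCh_33 are labelled Hoxa9,10,11-/- HoxC9,10,11+/-, that is, homozygous mutant for Hoxa9, Hoxa10 and Hoxa11 and heterozygous for Hoxc9, Hoxc10 and Hoxc11. Libraries AhCk_38, AhCk_110 and AhCk_115 are labelled Hoxa9,10,11+/- HoxC9,10,11-/-, the reciprocal combination. Libraries AkCk_24, AkCk_27 and AkCk_29 are labelled Hoxa9,10,11-/- HoxC9,10,11-/-. The account of the RNA-seq in the study describes the sequenced double mutants as Hoxa9,10-/- with Hoxa11+/- or Hoxa11+/+ in place of Hoxa11-/-, and the Hoxa11 alleles of a given AkCk library cannot be read from the labels. The mutant alleles are frameshifts that leave the genes in place. All AhCk libraries were sequenced in run1646 and all others in run1008, so genotype and run cannot be told apart in any comparison with AhCk. Counts on genes per library ranged from 28616877 in AkCh_20 to 47067903 in AhCk_110, with a median of 39328488. The unit of level is CPM, the usual read count normalised for library depth. The floor was set at 3 counts, which is 0.0615 CPM in AhCk_110 and 0.115 CPM in AkCh_20. Floors cover counting error only.

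The targeted genes were still transcribed in every library. Hoxa9 lay between 23.9 and 40.5 CPM over the 12 libraries, Hoxa10 between 100.4 and 165 CPM and Hoxa11 between 37.2 and 61.6 CPM. Hoxc9 lay between 9.15 and 32.5 CPM, Hoxc10 between 29.1 and 119.8 CPM and Hoxc11 between 0.883 and 2.92 CPM, each highest in AkCh_20, without which the upper limits were 15.6, 66.9 and 2.02 CPM. Against Wt, edgeR called Hoxc10 lower in AkCk (log2 fold change -0.78, adjusted p = 0.0127) and Hoxa10 lower (-0.49, adjusted p = 0.0270). It did not call Hoxa9 (0.02), Hoxa11 (-0.29), Hoxc9 (-0.27) or Hoxc11 (-0.65). Transcripts with a frameshift are still counted, though the paper reports that each mutant Hoxc allele also lacks part of its first exon. How many reads this removes was not tested, so the levels of the targeted genes do not check the genotype labels. Kidney markers were present in all 12 libraries. Umod of the loop of Henle had 140 to 481 CPM, highest in AkCk_27 and at most 284 CPM without it. The nephron progenitor gene Six2 had 13.2 CPM in AkCk_27 and 163 CPM in AkCh_20, and 28.0 to 105 CPM in the other 10 libraries.

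Sex was unequal between the genotypes. Ddx3y of the Y chromosome had 85.1 to 93.5 CPM in the Wt libraries, 78.5 CPM in AkCh_20, 62.6 CPM in AhCk_38, 54.2 CPM in AhCk_115 and 82.2 CPM in AkCk_24. Xist had 190 CPM in AkCh_31, 253 CPM in AkCh_33, 337 CPM in AhCk_110, 72.7 CPM in AkCk_27 and 60.1 CPM in AkCk_29, and these 5 libraries had at most 0.0824 CPM of Ddx3y. AkCk_24 is thus the AkCk library of the same sex as all Wt libraries. Among libraries, AkCh_20 stood apart most. It was the highest or the lowest of the 12 in 58.8% of 16260 genes, AkCk_27 was so in 31.4%, and the other 10 libraries were so in 5.89 to 17.4%.

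Schwann cells and their precursors descend from the neural crest, travel along growing nerves, and reach the kidney with the sympathetic and sensory fibres that follow its arteries. Sox10 is the transcription factor on which the peripheral glial lineage depends. Chromogranins are acidic proteins of the dense core granules in which neurons and endocrine cells store hormones and amines, and they are abundant in the chromaffin cells of the adrenal medulla, which lies next to the kidney and arises in part from Schwann cell precursors.

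All 7 genes were of low abundance in these whole kidneys. Mean levels over the 12 libraries ran from 0.189 CPM for Cdh19 to 1.85 CPM for Fabp7, and between 37.1% and 44.6% of the 36186 genes listed lay above them. Per kilobase of exon, the mean Wt level was 1.14 CPM for Fabp7, 0.182 for Chga, 0.130 for Sox10 and 0.102 for Xkr4. On the same scale it was 0.0518 CPM for Foxd3, 0.0327 for Chgb and 0.0139 for Cdh19. Fabp7 was thus the most abundant of the 7 transcripts per length in Wt kidney, and Cdh19 the least.

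Sox10 (Entrez 20665, chromosome 15 from 79154913 to 79164490 of GRCm38.p6) had 0.397, 0.370 and 0.421 CPM in Wt_30, Wt_37 and Wt_55. It had 0.805, 0.411 and 0.712 CPM in AkCh_20, AkCh_31 and AkCh_33, and 0.498, 0.840 and 0.789 CPM in AhCk_38, AhCk_110 and AhCk_115. In AkCk_24, AkCk_27 and AkCk_29 it had 1.05, 1.84 and 0.879 CPM, from 40, 72 and 32 counts. The AkCk libraries lay above all 9 others, and the AhCk libraries above all Wt libraries. AkCh_31 lay within the Wt range and the other AkCh libraries above it. The means were 0.396 ± 0.0255 CPM (SD, n = 3 here and below) in Wt, 0.643 ± 0.206 in AkCh, 0.709 ± 0.185 in AhCk and 1.25 ± 0.512 in AkCk. AkCh and AhCk are neighbours in this order that do not differ beyond their spread. The SDs of AhCk and AkCk overlap as well, though each AkCk library lay above each AhCk library.

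Foxd3 (Entrez 15221, chromosome 4 from 99656299 to 99658671) is a forkhead transcription factor of neural crest and early glia. It had 0.241, 0.0462 and 0.0743 CPM in Wt_30, Wt_37 and Wt_55, from 9.08, 2 and 3 counts. It had 0.306, 0.359 and 0.224 CPM in AkCh_20, AkCh_31 and AkCh_33, and 0.352, 0.376 and 0.315 CPM in AhCk_38, AhCk_110 and AhCk_115. AkCk_24, AkCk_27 and AkCk_29 held 0.602, 1.01 and 0.602 CPM. The AkCk libraries again lay above all 9 others and the AhCk libraries above all Wt libraries, while AkCh_33 lay below Wt_30. The means were 0.120 ± 0.105 CPM in Wt, 0.297 ± 0.0680 in AkCh, 0.348 ± 0.0303 in AhCk and 0.738 ± 0.235 in AkCk, and those of AkCh and AhCk do not differ beyond their spread. Of the 2324 exon bases of Foxd3, 89 (3.83%) are shared with Gm23366 on the same strand, and the exons of the other 6 genes are shared with no other gene.

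Xkr4 (Entrez 497097, chromosome 1 from 3199733 to 3671948) belongs to the XK-related membrane proteins. It had 0.686, 0.578 and 0.594 CPM in Wt_30, Wt_37 and Wt_55. It had 1.11, 0.605 and 1.26 CPM in AkCh_20, AkCh_31 and AkCh_33, and 0.807, 0.902 and 1.21 CPM in AhCk_38, AhCk_110 and AhCk_115. In AkCk_24, AkCk_27 and AkCk_29 it had 2.24, 2.23 and 1.07 CPM. AkCk_24 and AkCk_27 lay above all other libraries, and AkCk_29 lay below AkCh_20, AkCh_33 and AhCk_115. All AhCk and AkCk libraries lay above the Wt libraries. Mean Xkr4 was 0.619 ± 0.0586 CPM in Wt, 0.974 ± 0.212 in AhCk, 0.993 ± 0.345 in AkCh and 1.85 ± 0.672 in AkCk, with AhCk and AkCh within each other's spread and AkCk overlapping both.

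Cdh19 (Entrez 227485, chromosome 1 from 110888002 to 110977601), a cadherin of Schwann cell precursors, was the scarcest of the 7. It had 3, 0 and 4 counts in Wt_30, Wt_37 and Wt_55, or 0.0795, 0 and 0.0990 CPM. The 0 counts of Wt_37 allow a level of up to 0.0693 CPM. It had 0.153, 0 and 0.211 CPM in AkCh_20, AkCh_31 and AkCh_33, and 0.117, 0.0820 and 0.374 CPM in AhCk_38, AhCk_110 and AhCk_115. Cdh19 had in AkCk_24, AkCk_27 and AkCk_29 levels of 0.562, 0.375 and 0.220 CPM, from 21.5, 14.7 and 8 counts. The AkCk libraries lay above all Wt and AkCh libraries, though AkCk_29 exceeded AkCh_33 only by 0.220 against 0.211 CPM, and AhCk_115 lay within the AkCk range. Means were 0.0595 ± 0.0524 CPM in Wt, 0.121 ± 0.109 in AkCh, 0.191 ± 0.159 in AhCk and 0.386 ± 0.172 in AkCk, and no neighbours in this order differ beyond their spread.

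Fabp7 (Entrez 12140, chromosome 10 from 57784923 to 57788450), a fatty acid binding protein of immature glia, had another pattern. It had 1.12, 1.49 and 1.68 CPM in Wt_30, Wt_37 and Wt_55. It had 4.35, 1.59 and 1.23 CPM in AkCh_20, AkCh_31 and AkCh_33, and 1.14, 1.37 and 1.52 CPM in AhCk_38, AhCk_110 and AhCk_115. Levels in AkCk_24, AkCk_27 and AkCk_29 were 2.17, 2.27 and 2.25 CPM. AkCh_20 was by far the highest library, the other AkCh and all AhCk libraries lay within the Wt range, and the AkCk libraries lay close together above it. The means were 1.34 ± 0.188 CPM in AhCk, 1.43 ± 0.283 in Wt, 2.23 ± 0.0530 in AkCk and 2.39 ± 1.70 in AkCh. AhCk and Wt do not differ beyond their spread, and neither do AkCk and AkCh.

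Chga (Entrez 12652, chromosome 12 from 102554941 to 102565027) codes for chromogranin A. It had 0.530, 0.509 and 0.470 CPM in Wt_30, Wt_37 and Wt_55. It had 1.03, 0.557 and 0.211 CPM in AkCh_20, AkCh_31 and AkCh_33, and 0.410, 0.615 and 0.498 CPM in AhCk_38, AhCk_110 and AhCk_115. In AkCk_24, AkCk_27 and AkCk_29 it had 1.05, 0.587 and 2.25 CPM, from 40, 23 and 82 counts. AkCk_29 was 3.84-fold above AkCk_27, which was only just above the highest Wt library and below AhCk_110 and AkCh_20. The means were 0.503 ± 0.0302 CPM in Wt, 0.508 ± 0.103 in AhCk, 0.601 ± 0.414 in AkCh and 1.30 ± 0.860 in AkCk, and no neighbours in this order differ beyond their spread.

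Chgb (Entrez 12653, chromosome 2 from 132781642 to 132795079) codes for chromogranin B, also called secretogranin 1. It had 0.0530, 0.116 and 0.100 CPM in Wt_30, Wt_37 and Wt_55, from 2 to 5 counts. It had 0.345, 0.145 and 0.369 CPM in AkCh_20, AkCh_31 and AkCh_33, and 0.234, 0.430 and 0.145 CPM in AhCk_38, AhCk_110 and AhCk_115. In AkCk_24, AkCk_27 and AkCk_29 it had 0.314, 0.689 and 1.76 CPM, from 12, 27 and 64 counts. Every mutant library lay above every Wt library, where 17.4% of all genes tested had this for AkCk. AkCk_24 lay within the range of the other mutants, and AkCk_29 was 5.60-fold above AkCk_24. Mean Chgb was 0.0896 ± 0.0326 CPM in Wt, 0.270 ± 0.146 in AhCk, 0.286 ± 0.123 in AkCh and 0.920 ± 0.749 in AkCk, of which AhCk, AkCh and AkCk do not differ beyond their spread.

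**Figure D1:**
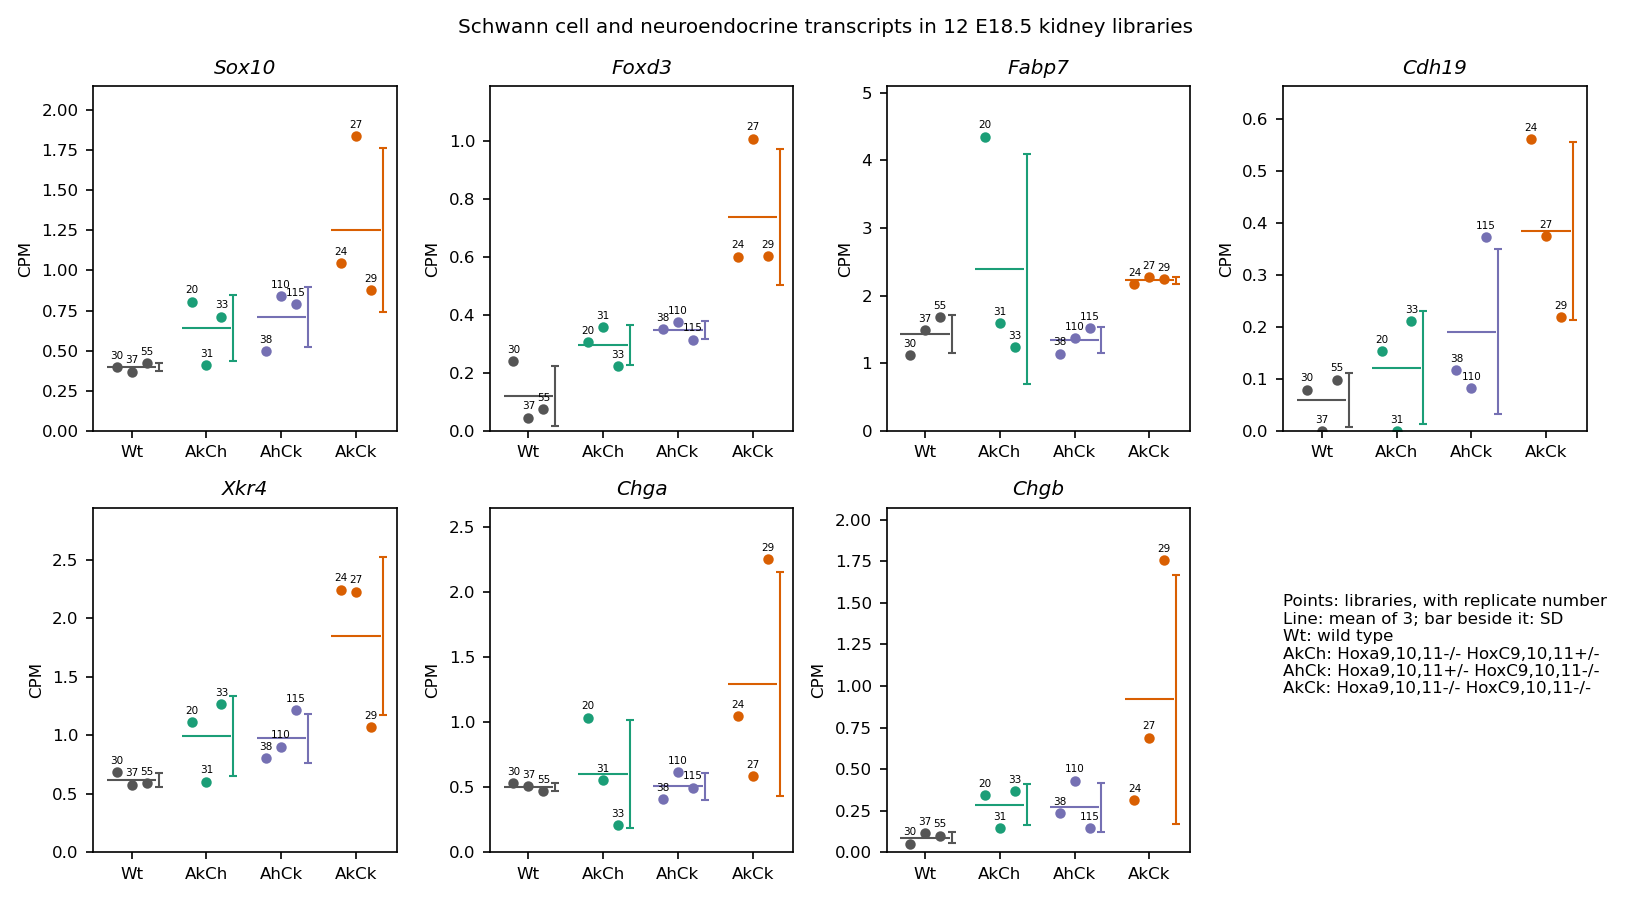
CPM of the 7 genes (vertical axis, starting at 0) in the 4 genotypes, with each point a library labelled by its replicate number, a line at the mean of 3 and a bar for the SD. AkCk_29 is highest for Chga and Chgb, and AkCh_20 is highest for Fabp7.

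The promoters of both chromogranin genes hold a cAMP response element, a known feature of these genes, and the sequence around it is shown because it is a feature that Chga and Chgb share and that played no part in their choice. The motif TGACGTNA and its reverse complement TNACGTCA were searched on both strands in the RefSeq promoters of GRCm38.p6, each 300 bases long with 250 bases before the gene start and 50 after it. The motif was chosen after these promoters were read. Of the 7 genes, 4 have a promoter in that table (Foxd3, Fabp7, Chga and Chgb), and Sox10, Cdh19 and Xkr4 are not in it. The motif was found in Chga, Chgb and Foxd3 and not in Fabp7, while 963 of all 32851 promoters (2.93%) hold it. Capitals mark the motif, and each sequence is on the plus strand.
Chga, chr12:102554857-102554944, motif from 44 to 37 bases before the start: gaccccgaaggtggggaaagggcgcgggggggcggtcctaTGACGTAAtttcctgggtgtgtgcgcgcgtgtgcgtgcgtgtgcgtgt
Chgb, chr2:132781530-132781617, motif from 72 to 65 bases before the start: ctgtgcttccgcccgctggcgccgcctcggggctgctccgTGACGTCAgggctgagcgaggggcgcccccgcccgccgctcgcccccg
Foxd3, chr4:99656049-99656113, motif from 233 to 226 bases before the start: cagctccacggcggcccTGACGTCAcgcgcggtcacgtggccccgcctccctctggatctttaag
A match of these letters is a description and was not tested as a binding site.

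Summed over the 7 genes, the AkCk libraries had 7.98, 8.99 and 9.03 CPM and the Wt libraries 3.11, 3.10 and 3.44 CPM. AkCh_20 had 8.10 CPM, of which Fabp7 gave 4.35 CPM, against 3.67 CPM in AkCh_31 and 4.22 CPM in AkCh_33. The AhCk libraries had 3.56, 4.62 and 4.85 CPM. The sums of AkCk were alike in size but not in make-up: the Schwann cell genes had 6.62 CPM in AkCk_24, 7.72 CPM in AkCk_27 and 5.02 CPM in AkCk_29, and the chromogranins had 1.36, 1.28 and 4.01 CPM. AkCk_29 was thus the lowest AkCk library for the Schwann cell genes and the highest for the chromogranins. In bulk kidney, more cells of a type and more RNA per cell cannot be told apart, and neither can fewer cells and less RNA.

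Across the 12 libraries, Sox10 varied most closely with Xkr4 among the other 6 genes, with a Pearson correlation of log2 CPM of 0.92. The correlation of Sox10 was 0.80 with Foxd3, 0.79 with Cdh19, 0.73 with Chgb, 0.49 with Fabp7 and 0.33 with Chga. Cdh19 and Xkr4 were at 0.88, Chga and Chgb at 0.57, and Xkr4 and Chga at 0.23. Foxd3 was at 0.74 with Xkr4, 0.66 with Chgb and 0.61 with Cdh19, and Fabp7 and Chga were at 0.65. Each pair among Sox10, Xkr4, Cdh19 and Foxd3 thus lay above Chga with Chgb, though Foxd3 with Cdh19 only just did. Fabp7, the remaining Schwann cell gene, lay below it with each of them, at 0.42 with Xkr4, 0.32 with Foxd3 and 0.31 with Cdh19. Sox10 with Chgb, Foxd3 with Chgb and Fabp7 with Chga also lay above Chga with Chgb. The differences among these correlations were not tested. The 7 genes were chosen from these same libraries, so the correlations support no grouping. These correlations describe 12 libraries that share runs, sexes and genotypes, and they carry no p.

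Among all genes, those most like Sox10 across the 12 libraries were Pik3r1 (Pearson 0.96), Xkr4 (0.92), Cx3cr1 (0.92), Col6a5 (0.91) and Tspan14 (0.91). Cx3cr1, the fractalkine receptor of macrophages, had 8.96 to 10.4 CPM in Wt and 15.3 to 23.1 CPM in AkCk. Col6a5, a collagen VI chain, had 0.139 to 0.446 CPM in Wt and 4.94 to 10.7 CPM in AkCk. Both are absent from the lists of nerve and glial genes used here. Those most like Chga were Gpr81 (0.91), Spg20 (0.88), Ppp2r1a (0.87), Pdlim1 (0.86) and Gsdmc3 (0.86), and Gsdmc3, like Chga, was highest in AkCk_29, with 32.0 CPM against 3.01 to 4.14 CPM in Wt. Those most like the mean of the 5 Schwann cell genes were Tspan14 (0.96), Clec11a (0.95), Cx3cr1 (0.95), Zcchc5 (0.94) and Actc1 (0.94). These orders depend on the libraries. Within run1008, 1 of the 5 genes stayed among the first 5 for each of Sox10, Chga and the Schwann cell mean. Without the highest library (AkCk_27 for Sox10 and the mean, AkCk_29 for Chga), 1, 1 and 3 of the 5 did.

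In AkCk against Wt, the log2 fold change fitted by edgeR was 2.64 (standard error 0.57) for Foxd3, 1.66 (0.36) for Sox10, 1.57 (0.34) for Xkr4 and 0.64 (0.23) for Fabp7 among the Schwann cell genes. It was 3.30 (0.74) for Chgb and 1.35 (0.49) for Chga. These values describe the contrast on which the genes were chosen and support nothing. Chgb had 2 to 5 counts in the Wt libraries, and Foxd3 had 2 and 3 counts in Wt_37 and Wt_55. As these lie near the floor, the values of Chgb and Foxd3 depend on few counts and are not measured folds. Cdh19 was left out of all fits by the filter on low counts and had 7 counts in all Wt libraries together against 44.2 in AkCk. Without AkCk_29 the value of Chga was 0.69 and that of Chgb 2.43, and without AkCk_27 that of Sox10 was 1.28. Without Wt_30 the other Wt libraries have 2 and 3 counts of Foxd3, at or below the floor, so no value of Foxd3 is given for that fit.

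In AkCh against Wt, a comparison within run1008 of homozygous Hoxa and heterozygous HoxC mutants, 4 of the 7 genes passed the filter. The log2 fold change was 0.74 (standard error 0.52) for Fabp7, 0.68 (0.35) for Sox10, 0.68 (0.35) for Xkr4 and 0.22 (0.55) for Chga, and Foxd3, Chgb and Cdh19 were left out of the fit. Over all genes edgeR called 0 of 15789 (0%), with 360 genes at an unadjusted p under 0.05, 22 genes called by DESeq2 and 1 by limma. Without AkCh_20 edgeR called 8 genes, and the values were -0.01 for Fabp7, 0.49 for Sox10 and -0.38 for Chga. In AhCk against Wt, where run and genotype cannot be told apart, 5 genes passed the filter. The log2 fold change was 1.54 (0.57) for Foxd3, 0.86 (0.31) for Sox10, 0.67 (0.27) for Xkr4, 0.04 (0.29) for Chga and -0.07 (0.24) for Fabp7. Over all genes edgeR called 2.36% of 15902. The value of Foxd3 depends on the same few Wt counts, and none without Wt_30 is given, for the same reason as above. These comparisons share the Wt libraries with the one of AkCk.

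In AkCk against AkCh, a comparison within run1008, 6 genes passed the filter. The log2 fold change was 1.71 (standard error 0.72) for Chgb, 1.30 (0.39) for Foxd3, 1.15 (0.70) for Chga, 0.99 (0.42) for Sox10, 0.91 (0.42) for Xkr4 and -0.08 (0.49) for Fabp7. Of all 15764 genes tested, edgeR called 0 (0%), with 1787 at an unadjusted p under 0.05, 554 called by DESeq2 and 1 by limma. Without AkCh_20 edgeR called 687 genes, and the value of Fabp7 was 0.67, that of Chga 1.75 and that of Sox10 1.19. Without AkCk_29 Chgb was at 0.84 and Chga at 0.48, and without AkCk_27 Sox10 was at 0.61.

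Other genes of nerves, glia and neighbouring endocrine tissue were drawn from 9 lists of 157 genes, of which 156 are in the counts. In AkCk against Wt, 17 of them rose and 8 fell at an adjusted p under 0.05 by edgeR (25 genes, 21.7% of those tested, with 13.7% over all genes). Their median log2 fold change was 0.16, and that of all genes tested was -0.01. Over all genes 999 were higher and 1172 lower, 2171 in total. This total was 3386 without Wt_30, 535 without Wt_37, 633 without Wt_55, 793 without AkCk_24 and 1101 without AkCk_27, and the count of list genes was 8 without Wt_37, 8 without Wt_55, 11 without AkCk_24 and 14 without AkCk_27. The p-values set the difference between groups against the spread between these replicates.

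Of 28 further Schwann lineage genes, 24 were tested, and 3 rose and 1 fell, with a median log2 fold change of 0.15. Over all genes 13.7% were called. DESeq2 and limma each called 6 of the list. With all 12 libraries or the 9 of run1008 in the fit, edgeR called 2, and the calls of Pmp22 and Tfap2a were lost. S100b, a calcium binding protein of glia, had 0.318, 0.185 and 0.190 CPM in Wt_30, Wt_37 and Wt_55 and 0.706, 1.02 and 0.934 CPM in AkCk_24, AkCk_27 and AkCk_29. Its rise on the log2 scale was 1.92 (standard error 0.35, adjusted p = 0.0161, higher in 3 of 3 libraries). Gfra3, the artemin coreceptor, rose by 1.59 (adjusted p = 0.0164) from 0.399 ± 0.0983 to 1.22 ± 0.142 CPM, and the myelin gene Pmp22 by 0.59 (adjusted p = 0.0158) from 74.9 ± 8.73 to 113 ± 11.2 CPM. Tfap2a, a transcription factor of neural crest that is also expressed in kidney tubules, fell by 0.97 (adjusted p = 0.0119). Without Wt_37 the calls of S100b, Pmp22 and Tfap2a were lost, without Wt_55 those of S100b and Gfra3, and without AkCk_24 those of Gfra3, Pmp22 and Tfap2a, so that the list held 1, 2 and 1 called genes.

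Other Schwann cell genes were not past the threshold, Erbb3, Ngfr and Mbp among them. The neuregulin receptor gene Erbb3 was at 0.26, Ngfr at 0.12 and Mbp at 0.02 on the log2 scale. These 3 are far more abundant than Sox10 in Wt kidney, with means of 27.7, 34.1 and 21.6 CPM, and the list sum was led by Mal, a gene also expressed in kidney epithelium, which gave 40.3% of it. Of the 28 genes, 16 had 1 CPM or more in Wt kidney. The list sum was 530 to 566 CPM in Wt, 524 to 544 in AkCh, 507 to 524 in AhCk and 593 to 681 in AkCk.

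Of 15 further neural crest and glial regulators, 11 were tested, and edgeR called 0 (2 at an unadjusted p under 0.05, 1 by DESeq2 and 0 by limma), with a median log2 fold change of -0.17. Without Wt_30 edgeR called 2 of them, and without AkCk_29 it called 1. Ets1, Zeb2 and Ednrb were the most abundant, Olig2 had no count in any library, and 11 of the 15 had 1 CPM or more in Wt. Their sum was 668 to 678 CPM in Wt, 662 to 701 in AkCh, 625 to 658 in AhCk and 679 to 734 in AkCk. Sox10 and Foxd3 are regulators of the same lineage, and their levels are those given above.

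Of 24 genes of autonomic neurons, 17 were tested, 6 rose and 2 fell, where 13.7% of all genes were called, with a median log2 fold change of 0.62. DESeq2 also called 8 of them, limma called 3, and edgeR with the 9 libraries of run1008 in the fit called 1. Ntrk3, the neurotrophin 3 receptor, had 3.66, 3.20 and 3.04 CPM in Wt_30, Wt_37 and Wt_55 and 12.3, 14.8 and 9.59 CPM in AkCk_24, AkCk_27 and AkCk_29, and it rose by 1.89 (standard error 0.19, adjusted p = 0.00223). The groups lie far apart, and the Ntrk3 call held in each fit that left out 1 library. Chrnb4, a nicotinic receptor subunit of ganglia, rose by 1.09 (adjusted p = 0.0309), Stmn2, a stathmin of growing axons, by 0.88 (adjusted p = 0.0198) and Mapt, the tau gene, by 0.71 (adjusted p = 0.0268). Gap43 (0.88, adjusted p = 0.0396) was named after its values were seen. Rtn1 fell by 0.97 (adjusted p = 0.0316) and Dcx by 0.98 (adjusted p = 0.0436).

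Leaving out 1 library ended several calls among the neuron genes named. Without Wt_37 the calls of Stmn2, Mapt, Chrnb4, Gap43, Rtn1 and Dcx were lost, and without Wt_55 those of Mapt, Chrnb4, Gap43, Rtn1 and Dcx. Without AkCk_24 those of Stmn2, Mapt, Chrnb4, Rtn1 and Dcx were lost, without AkCk_27 those of Stmn2, Mapt, Chrnb4, Gap43 and Rtn1, and without AkCk_29 those of Gap43, Rtn1 and Dcx. AkCh_20 was the highest of all libraries for Stmn2, with 8.05 CPM, and for 11 of the 24 genes (45.8%, with 25.8% over all genes that have a count). Elavl4, an RNA binding protein of neurons, had 6.36, 6.87 and 7.72 CPM in Wt and 1.15, 0.612 and 4.78 CPM in AkCk (log2 fold change -1.69, adjusted p = 0.111). Prph, a neurofilament protein of peripheral neurons, was at 0.68 (adjusted p = 0.318). The neuron genes summed to 79.3 to 89.3 CPM in Wt, 76.6 to 119 in AkCh (at most 77.7 without AkCh_20), 77.7 to 82.6 in AhCk and 101 to 105 in AkCk. Mapt gave 22.7% of it, and 11 of the 24 genes had 1 CPM or more in Wt.

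Among signals between nerve, glia and tissue, all 19 genes in the counts were tested, and 2 rose and 2 fell. Their median log2 fold change was 0.13, and 13.7% of all genes were called. Gfra2, the neurturin coreceptor, had 10.1, 8.99 and 9.95 CPM in Wt and 25.4, 41.7 and 21.1 CPM in AkCk_24, AkCk_27 and AkCk_29, and rose by 1.60 (standard error 0.24, adjusted p = 0.00778). Gdnf, which codes for a growth factor made by nephron progenitors as well as a signal to neurons, had 29.8, 35.3 and 39.8 CPM in Wt and 10.6, 6.31 and 14.8 CPM in AkCk, and fell by 1.73 (adjusted p = 0.0100). Both calls held in each fit that left out 1 library, AkCk_27 included. Ntrk2 rose by 0.65 (adjusted p = 0.0336), a call lost without Wt_37, Wt_55 or AkCk_24. Nrg3 fell (adjusted p = 0.0290), a call lost without Wt_37, Wt_55, AkCk_24 or AkCk_27. It had 12, 23 and 26 counts in Wt and 2, 2 and 6 in AkCk_24, AkCk_27 and AkCk_29. As 2 counts lie below the floor, no fold is given. Nrg3 was also low in AkCh (2, 10 and 6 counts) and AhCk (0, 7 and 4 counts). AkCk_27 was the highest library for 8 of the 19 genes (42.1%, with 14% over all genes that have a count). The signal genes summed to 699 to 756 CPM in Wt, 684 to 793 in AkCh, 707 to 776 in AhCk and 749 to 772 in AkCk, with 38% from Nrp1, and 18 of the 19 genes had 1 CPM or more in Wt.

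Of 10 genes of the perineurium and endoneurium, the sheaths of nerves, 9 were tested, 2 rose and 1 fell. Their median was 0.09, and 13.7% of all genes were called. Sfrp4, a secreted Wnt antagonist, had 0.477, 0.370 and 0.347 CPM in Wt and 2.72, 4.62 and 3.19 CPM in AkCk_24, AkCk_27 and AkCk_29. It rose by 3.13 (standard error 0.30, adjusted p = 0.00188), a call that held in each fit that left out 1 library. Sfrp4 was also at 1.53 CPM in AkCh_20, against 0.326 and 0.158 CPM in AkCh_31 and AkCh_33, and at 0.703, 2.12 and 2.93 CPM in AhCk. Cldn1 rose by 0.56 (adjusted p = 0.0437), a call lost without Wt_37, Wt_55, AkCk_24 or AkCk_27, and Osr2 fell by 0.69 (adjusted p = 0.0333), a call lost without Wt_37, Wt_55, AkCk_24 or AkCk_29. The sum was 373 to 401 CPM in Wt, 389 to 421 in AkCh, 344 to 380 in AhCk and 405 to 496 in AkCk, with 45.5% from Slc2a1, and 6 of the 10 genes had 1 CPM or more in Wt. Of 9 melanocyte genes, a further neural crest lineage, 2 were tested, and edgeR, DESeq2 and limma called 0, with 0 at an unadjusted p under 0.05 and a median of 0.00. Dct, an enzyme of melanin synthesis, had 0.0248 to 0.106 CPM in Wt and 0.0510 to 0.399 CPM in AkCk, and Pmel, a melanosome protein, had 1.34 to 1.56 and 1.34 to 1.44 CPM. Mitf gave 91.2% of that sum, which was 24.7 to 29.7 CPM in Wt, 18.1 to 25.4 in AkCh, 26.0 to 27.7 in AhCk and 23.1 to 32.4 in AkCk, and 2 of the 9 genes had 1 CPM or more in Wt.

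**Figure D2:**
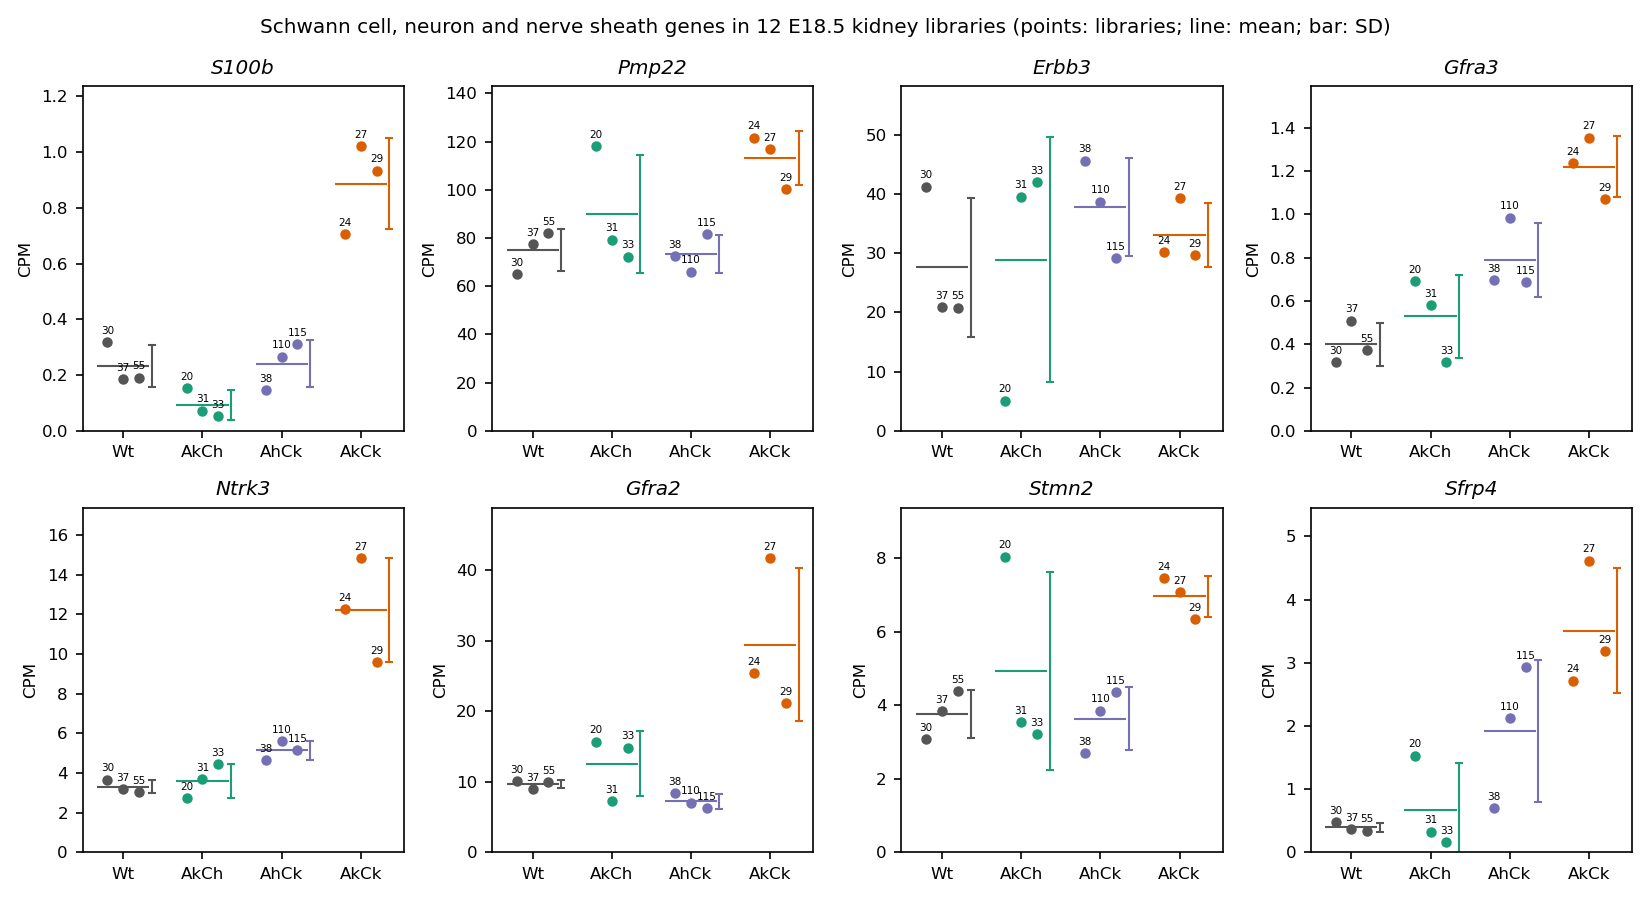
CPM (vertical axis, starting at 0) of S100b, Pmp22, Erbb3, Gfra3, Ntrk3, Gfra2, Stmn2 and Sfrp4 in the 4 genotypes, with each point a library labelled by its replicate number, a line at the mean of 3 and a bar for the SD, not drawn below 0. AkCh_20 is highest for Stmn2 with 8.05 CPM, and the Wt and AkCk points of Erbb3 overlap.

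Of 20 genes of neuroendocrine granules and secretion, the setting in which chromogranins act, 16 were tested, 2 rose and 1 fell. Their median was 0.50, and 13.7% of all genes were called. Cpe, the carboxypeptidase of granules, rose by 0.67 (adjusted p = 0.0140) from 78.2 ± 3.34 to 125 ± 21.8 CPM, and it gave 57.9% of the list sum. Vgf, a granin, rose by 1.65 (adjusted p = 0.0336) from 0.131 ± 0.0223 to 0.420 ± 0.0785 CPM, and Stx1a, a syntaxin of vesicle fusion, fell by 1.10 (adjusted p = 0.0132). The call of Vgf was lost without Wt_30, Wt_37, Wt_55, AkCk_24 or AkCk_27, that of Cpe without Wt_37 or Wt_55 and that of Stx1a without Wt_55. Scg2, the secretogranin 2 gene, had 0.318, 0.647 and 0.0990 CPM in Wt and 0.209, 0.459 and 0.494 CPM in AkCk (log2 fold change 0.11, adjusted p = 0.920), and the prohormone convertase gene Pcsk1 had 0 counts in all AkCh and AkCk libraries and at most 4 in any other. The granule genes summed to 142 to 155 CPM in Wt, 140 to 175 in AkCh, 129 to 159 in AhCk and 174 to 215 in AkCk, highest in AkCk_27, and 8 of the 20 genes had 1 CPM or more in Wt.

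Of 18 chromaffin cell genes, 9 were tested and 2 rose, where 13.7% of all genes were called, with a median of 0.13. Cyb561, a cytochrome of granule membranes, rose by 0.57 (adjusted p = 0.00832) from 20 ± 1.04 to 29.7 ± 1.38 CPM, a call that held in each fit that left out 1 library. Ddc, the aromatic amino acid decarboxylase that kidney tubules also express, rose by 0.88 (adjusted p = 0.0447), a call lost without Wt_37, Wt_55, AkCk_24 or AkCk_27. The amine transporter gene Slc18a1 was at 1.03 (adjusted p = 0.0911). The list sum was 308, 380 and 389 CPM in Wt_30, Wt_37 and Wt_55, 515, 327 and 319 CPM in AkCh_20, AkCh_31 and AkCh_33, 331, 344 and 339 CPM in AhCk_38, AhCk_110 and AhCk_115, and 368, 381 and 378 CPM in AkCk_24, AkCk_27 and AkCk_29. Penk gave 80.2% of it, and 8 of the 18 genes had 1 CPM or more in Wt.

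The catecholamine enzyme genes Th and Dbh were near 0 in most libraries. Th stood out in AkCk_27 (28 counts) as well as AkCk_29, with at most 0.172 CPM in any other library. AkCk_27 had the lowest Chga of the AkCk libraries. Th, the first enzyme of catecholamine synthesis, had 0, 0.0462 and 0.0495 CPM in Wt and 0.0523, 0.714 and 1.36 CPM in AkCk_24, AkCk_27 and AkCk_29. Dbh, the enzyme that makes noradrenaline, had 0.0530, 0 and 0.0248 CPM in Wt and 0.0523, 0.255 and 1.59 CPM in AkCk, from 2, 10 and 58 counts. Both were thus highest in AkCk_29, the library with the most Chga and Chgb, and were close to their Wt levels in AkCk_24, where Chga was at 1.05 CPM. Hand2 and Slc6a2, chosen after their values were seen, were also highest in AkCk_29, at 0.549 and 0.714 CPM. Pnmt, which makes adrenaline, went the other way: it had 1.20, 1.81 and 1.35 CPM in Wt and 0.247, 0 and 0.989 CPM in AkCk (log2 fold change -1.85, adjusted p = 0.181).

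Adrenal cortex genes were examined because the gland adjoins the kidney. Of 13 genes, 8 were tested, and Akr1b7 fell by 0.62 (adjusted p = 0.0222), a call lost without Wt_37, Wt_55, AkCk_24 or AkCk_27, with a list median of 0.03. DESeq2 called 4 of the list, 3 of them higher in AkCk, and limma called 0. Of all genes tested, edgeR called 13.7%. Cyp11a1, the first enzyme of steroid synthesis, had 0.371, 0.555 and 0.347 CPM in Wt and 0.773, 0.796 and 1.87 CPM in AkCk (log2 fold change 1.42, adjusted p = 0.0703). Cyp21a1, the steroid 21-hydroxylase gene, had 0, 0.227 and 0 CPM in Wt and 0, 0.0510 and 0.879 CPM in AkCk. Star, which moves cholesterol into mitochondria, overlapped between the groups at 3.35 to 4.55 CPM in Wt and 2.67 to 4.21 CPM in AkCk. Cyp11b1 and Hsd3b1, chosen after their values were seen, had 0.741 and 1.10 CPM in AkCk_29, against 0 and 0.183 CPM in AkCk_24. AkCk_29 was the highest library for 5 of the 12 cortex genes with a count. Nr5a1, Nr0b1, Cyp17a1 and Mc2r, also chosen after their values were seen, were not among them. In AkCk_29, Nr5a1 had 0.577 CPM (0.424 to 1.02 in Wt), Nr0b1 0.275 CPM (0.212 to 0.347 in Wt) and Cyp17a1 0 CPM. Mc2r was highest in AkCh_20, at 8.54 CPM. Cyp11b2 had 0 counts in every library. The cortex genes summed to 114, 125 and 116 CPM in Wt_30, Wt_37 and Wt_55, 100.3, 107 and 109 CPM in AkCh_20, AkCh_31 and AkCh_33, 107, 98.4 and 96.5 CPM in AhCk_38, AhCk_110 and AhCk_115, and 117, 114.96 and 127 CPM in AkCk_24, AkCk_27 and AkCk_29, with 60.3% from Scarb1, and 5 of the 13 genes had 1 CPM or more in Wt.

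AkCk_29 was the highest of the 12 libraries for 7 of 18 chromaffin genes (38.9%), 7 of 20 granule genes (35%) and 5 of 12 adrenal cortex genes with a count (41.7%). It was the highest for 3 of 28 Schwann lineage genes (10.7%) and for 5.31% of the 20282 genes with a count in any library. Most genes of each of these lists were highest in other libraries, and the part of any list in the chromogranin values was not tested. The Schwann cell genes Sox10, Foxd3 and Xkr4 were not highest in AkCk_29, and the log2 fold change without it was 1.86 for Sox10 and 1.84 for Xkr4, above the values with it.

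**Figure D3:**
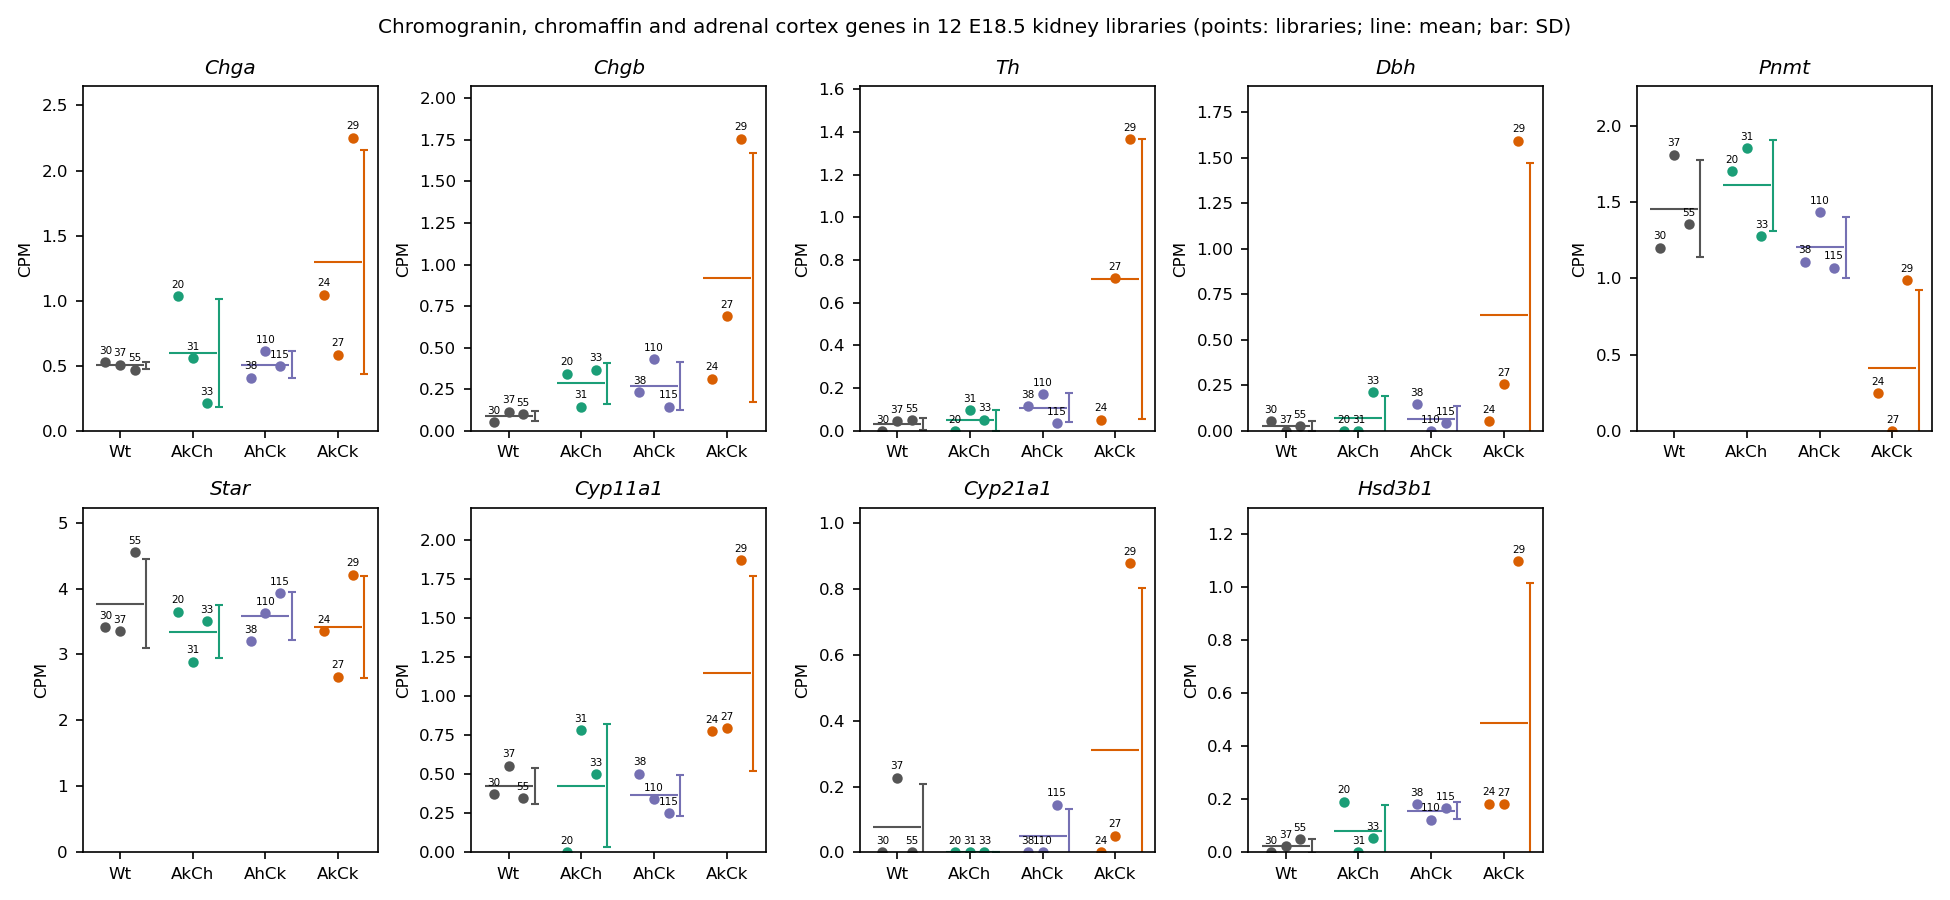
CPM (vertical axis, starting at 0) of Chga, Chgb, the chromaffin genes Th, Dbh and Pnmt, and the adrenal cortex genes Star, Cyp11a1, Cyp21a1 and Hsd3b1 in the 4 genotypes, with each point a library labelled by its replicate number, a line at the mean of 3 and a bar for the SD, not drawn below 0. AkCk_29 is the highest library for all of these but Pnmt and Star.

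**Figure D4:**
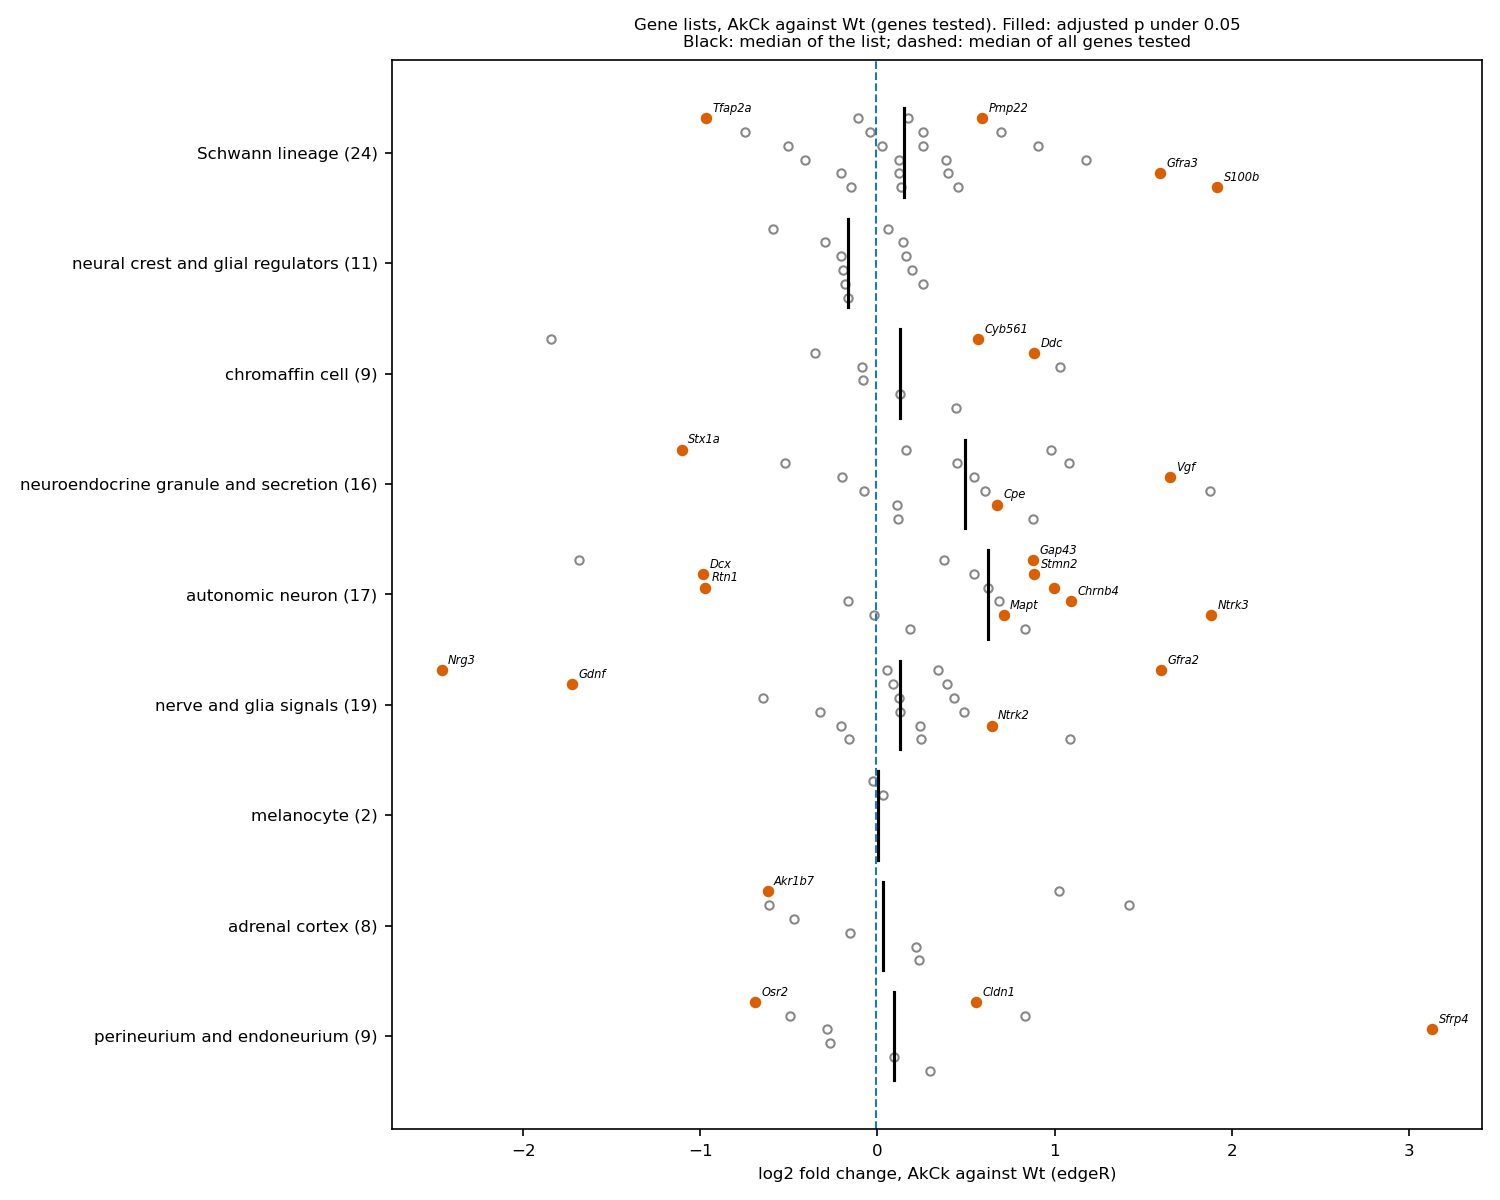
Log2 fold change of AkCk against Wt (horizontal axis, edgeR) for the genes tested of each of the 9 lists, with the number tested in brackets, filled where the adjusted p is under 0.05 and named where the text gives the gene, a black line at the median of the list and a dashed line at that of all genes tested (-0.01). Autonomic neuron genes have the highest list median (0.62), and Sfrp4 the largest rise (3.13).

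In AkCh against Wt, edgeR called 0 of 111 list genes, as did DESeq2 and limma, with 0% called over all genes, 5 at an unadjusted p under 0.05 and a median of 0.08. In AhCk against Wt, edgeR called 2 list genes (1.74% of those tested, with 2.36% over all genes, 20 at an unadjusted p under 0.05), with a median of 0.01, and both were named after their values were seen. Ednrb, the endothelin receptor of neural crest, fell by 0.66 (adjusted p = 0.0366) and Nefl, the light neurofilament, rose by 1.03 (adjusted p = 0.0461) from 1.17 ± 0.0921 to 2.37 ± 0.274 CPM. Both calls were lost without Wt_30, Wt_37, Wt_55, AhCk_110 or AhCk_115, and that of Nefl without AhCk_38 as well. The list count was then 1, another gene, without Wt_30 and 0 without Wt_37, Wt_55, AhCk_110 or AhCk_115. Over all genes 376 were called, which was 60 without Wt_37, 70 without Wt_55, 63 without AhCk_110 and 99 without AhCk_115, and run and genotype cannot be told apart here.

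In AkCk against AkCh, edgeR called 0 of 114 list genes (20 at an unadjusted p under 0.05, 8 by DESeq2 and 0 by limma), with a median of 0.14. Without AkCh_20 it called 9 of 120 list genes (7.5%), all higher in AkCk, with 4.3% of 15986 genes called. Among them were Cpe, Cyb561, Ntrk2, Ntrk3, Pmp22, S100b, Sfrp4 and Stmn2. S100b (adjusted p = 0.0195) had 27, 40 and 34 counts in AkCk_24, AkCk_27 and AkCk_29 and 3 and 2 counts in AkCh_31 and AkCh_33, at or below the floor, so no fold is given. Sfrp4 had a mean of 3.51 CPM in AkCk and 0.242 CPM in AkCh_31 and AkCh_33, and its fitted log2 fold change was 3.88 (adjusted p = 0.0156). S100b was thus low in AkCh, where Sox10 was at 0.411 and 0.712 CPM in AkCh_31 and AkCh_33.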

How the data were processed

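RNA was sequenced from 12 E18.5 kidneys, 3 of each genotype, by the study as paired-end TruSeq reads of 75 bases. Reads were aligned by the authors to build mm10, after which they dropped those that fit more than 1 place, and used Strand NGS for the deposited expected counts, which are not normalized. A separate deposited table holds normalized log2 values, each gene's median over the libraries subtracted. Depth was 28616877 to 47067903 counts per library (median 39328488), and the floor was 3 counts.

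Expected counts were rounded and fitted with edgeR 4.0.16 in R 4.3.3: TMM factors, filterByExpr at default settings (count 10, total count 15), the quasi-likelihood test, Benjamini-Hochberg adjustment over all genes tested and a threshold of 0.05. Each fit held the 6 libraries compared. Standard errors are the absolute log2 fold change divided by the square root of F. CPM use TMM factors over the 12 libraries, and likeness uses log2 CPM with a prior count of 2. For 92 symbols listed more than once, the entry with the most counts was used. Exon lengths came from GENCODE M21, and promoters and positions from RefSeq of GRCm38.p6. Python 3.11.15 and matplotlib 3.10.9 made the figures. The fits were tested on simulated data.

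The 7 genes and the 9 lists (157 symbols, of which Adgrg6 was not found) were chosen with earlier results of these data known. Genes named are the 7 genes, list genes called in AkCk against Wt or against AkCh (up to 5 per list and direction, by p), the 3 most abundant of each list, defining markers (among them Erbb3, S100b, Ngfr, Th, Dbh, Pnmt, Slc18a1, Star, Cyp11a1, Cyp21a1, Prph, Elavl4, Stmn2, Scg2, Pcsk1, Dct, Pmel), the targeted Hox genes, kidney and sex markers, and the 5 genes most like Sox10, Chga and the mean of the 5 Schwann cell genes. Exceptions are said to be named after their values were seen. Tried as alternatives were DESeq2 1.42.0, RLE factors, no TMM factors, no filter beyond 1 count, unrounded counts, 12 or 9 libraries in the fit, limma 3.58.1 on the deposited log2 values, and leaving out each library.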

Additional observations from a re-analysis of the deposited data

Results flagged for a closer look

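For 3 of the 27 list genes called in any comparison (11.1%), every library of one mutant genotype lay above all Wt libraries and every library of another lay below them. The share was 9.81% over all 2456 genes called in any comparison, so that of the list genes is near the background. Gfra2 lay above Wt in AkCk and below Wt in AhCk, with a log2 difference of 2.02 between AkCk and AhCk that was not tested. Ntrk2 did the same, with a difference of 0.97 that was not tested. Each AhCk library is from run1646, so for both genes genotype and run cannot be told apart. S100b lay above Wt in AkCk and below Wt in AkCh, within run1008. Its fitted log2 difference between AkCk and AkCh was 3.30 (standard error 0.47), which edgeR did not call (adjusted p = 0.111). It had 4, 3 and 2 counts in AkCh, near the floor, so this value depends on few counts and is not a measured fold.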

How the results depend on the processing

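Counts of called genes moved with the tool and with the libraries in the fit, and the cause was not tested. In AkCk against Wt, the 2171 genes became 3380 with DESeq2, 1215 with limma, 1190 with all 12 libraries in the fit and 690 with the 9 libraries of run1008, and ranged from 535 to 3386 with 1 library left out. The 25 list genes became 15 with 12 libraries and 10 with 9, and ranged from 8 to 30 with 1 library left out. In AkCh against Wt, the 0 genes by edgeR (360 at an unadjusted p under 0.05) became 22 with DESeq2, 2 with 12 libraries and 1 with limma, and 0 to 8 with 1 library left out. In AhCk against Wt, the 376 genes became 1309 with DESeq2, 149 with 12 libraries and 158 with limma, and 60 to 549 with 1 library left out. Its 2 list genes became 10 with DESeq2, 0 with 12 libraries, 1 without the filter and 1 with limma, and 0 to 3 with 1 library left out. In AkCk against AkCh, the 0 genes by edgeR (1787 at an unadjusted p under 0.05) became 554 with DESeq2, 540 with 12 libraries, 181 with 9 libraries, 1 without the filter and 1 with limma, and 0 to 687 with 1 library left out. Its 0 list genes (20 at an unadjusted p under 0.05) became 8 with DESeq2, 5 with 12 libraries and 2 with 9, and 0 to 9 with 1 library left out. Cdh19, left out by the filter, has no fold change here. Of 84 values of the other 6 genes under the alternatives of AkCk against Wt, all lay above 0. The genes were chosen from this contrast, so these signs support nothing. The 84 values include the Foxd3 fit without Wt_30, for which no value is given above. Of the 84, 81 moved by less than the spread between replicates. Of 205 values of the genes fitted in the other comparisons, 177 lay above 0 and 202 moved by less than that spread. The signs that changed were those of Chga and Fabp7. In AkCh against Wt, both did so without AkCh_20, and Chga with limma. In AhCk against Wt, Chga did so without Wt_55 or AhCk_110 and Fabp7 without Wt_55 or AhCk_38. In AkCk against AkCh, Fabp7 did so without AkCh_20 and with limma. All 56 of their mean CPM under other scalings moved by less than that spread. Of 374 values of the list genes named, 256 stayed past the threshold, 118 did not, and 0 reversed direction. Depth limits Cdh19 most, with 0 to 4 counts per Wt library.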
